A study of Mus musculus with 6 samples.

Results

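Transcripts of 9 G protein-coupled receptors that steer lymphocytes between bone marrow, blood and lymphoid organs were examined: the chemokine receptor genes Cxcr4, Cxcr5, Ccr2, Ccr6, Ccr7 and Ccr9, the sphingosine-1-phosphate (S1P) receptor genes S1pr1 and S1pr4, and the oxysterol receptor gene Gpr183. They were chosen by gene symbol. Each had 1 probe set carrying that symbol alone, so all 9 were among the 19936 genes measured. Transcript levels came from Affymetrix arrays of mouse pre-B cells that BCR-ABL1 had transformed, the fused tyrosine kinase behind Philadelphia chromosome-positive leukaemia. The cells were from C57Bl6 mice of 4 weeks, labelled wild-type, and every array carries BCR-ABL1. One group was transduced with pMIG-IKZF1, a retroviral vector with the gene of the transcription factor Ikaros (IKZF1 1 to 3), and the other with pMIG alone (empty vector 1 to 3). Cells positive for green fluorescent protein were sorted 3 days later. The labels give neither the species or isoform of the insert nor whether arrays within a group stem from different cultures or mice, so the p-values cover only the spread among these samples, possibly a technical one. The comparison asks which transcripts change when the Ikaros gene is added to cells that already carry Ikzf1 transcripts.

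Chemokine receptors couple to inhibitory G proteins and turn a cell towards the source of a secreted chemokine. CXCR4 reads CXCL12 and keeps B cell precursors in the bone marrow, CXCR5 leads mature B cells to CXCL13 in follicles, and CCR7 leads lymphocytes to CCL19 and CCL21 in T cell zones. S1P is abundant in blood, and S1PR1 drives the exit of lymphocytes into it, while GPR183 places activated B cells along gradients of an oxysterol.

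Ikzf1 lay between log2 13.06 and 13.14 on the IKZF1 arrays and between 11.78 and 11.98 on the empty vector arrays. The label was checked against 14 pre-B cell markers: all 13 measured, among them Cd79a, Vpreb1 and Igll1, lay above the background limit, and 0 passed the test between the groups in limma. An unadjusted p under 0.05 was seen for 3 of the 13, beside 18.4% of all genes. The limit, a log2 level of 6.24, is the higher of the 2 groups' values below which 95% of 1194 olfactory and vomeronasal receptor genes lay. Each gene was set against it by its mean over the 6 arrays. Of the pre-B cell markers only Rag2 fell below it on single arrays, at 6.03 on IKZF1 2 and 5.53 on empty vector 2. Above it were 3 of 10 measured T cell markers, 1 of 8 natural killer cell, 2 of 12 myeloid and 4 of 9 dendritic cell markers. So were 3 of 5 erythroid, 3 of 8 stromal, and 8 of 9 mature B and plasma cell markers. Of these last, Ms4a1 and Prdm1 averaged 5.34 and 6.15 in empty vector cells, below the limit. Cr2 averaged 5.85 in IKZF1 cells, also below it. Empty vector 3 stood apart: 141 genes lay more than 1 log2 unit below all other arrays there and 18 lay as far above, against at most 14 below and 3 above on any other array. For the receptor genes above the limit, results are given with and without that array.

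Of the 9 receptor genes 1 rose in IKZF1 cells, S1pr4, and 8 did not pass the test (limma, Benjamini-Hochberg adjusted p under 0.05 over 19936 genes). Of all genes, 2.25% passed in either direction, 1.12% upward and 1.13% downward. With replicate number as a block 2 receptor genes passed, S1pr4 and Ccr7, where 7.21% of all genes passed. The 3 arrays of each group did not overlap for those 2 of 9, which is 22.2%, beside 26.5% of all genes. The difference was above 0 for 8 of 9, as for 59.2% of all genes, and the median was 0.14 on the log2 scale, beside 0.03. The share of receptor genes whose groups did not overlap was thus close to that of all genes. Their transcripts fell into those above the background limit, which were S1pr4, Ccr7, S1pr1, Cxcr4 and Cxcr5, and those within it, which were Gpr183, Ccr6, Ccr9 and Ccr2.

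**Figure D1:**
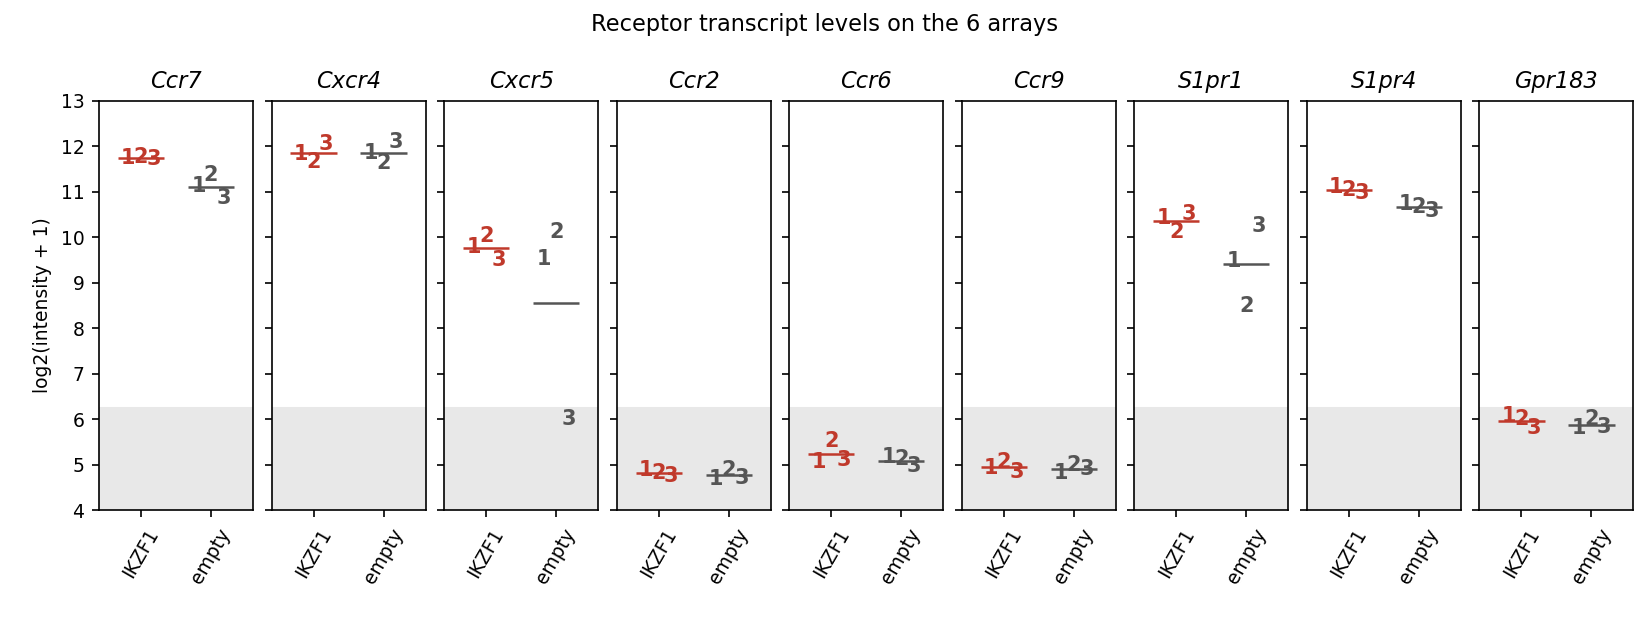
Log2(intensity + 1) of the 9 receptor genes on each array, with the replicate number as the symbol, IKZF1 in red left of empty vector in grey, and group means as bars; the grey band ends at the background limit of 6.24. The groups are apart for Ccr7 and S1pr4, empty vector 3 alone is low for Cxcr5, and Ccr2, Ccr6, Ccr9 and Gpr183 lie in the band.

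S1pr4 encodes an S1P receptor found mainly on blood cells. Its level was 11.10, 11.05 and 10.98 on the IKZF1 arrays and 10.74, 10.67 and 10.57 on the empty vector arrays, on the log2(intensity + 1) scale that holds for all levels here. Every IKZF1 array lay above every empty vector array, and the spread within a group was small, with SDs of 0.06 and 0.08 (n = 3 each). The difference was 0.38 ± 0.07 (SE), a 1.30-fold higher level, with an adjusted p of 0.0484 (limma). The 2-sided exact permutation test of the 6 values gave p = 0.1, the smallest that 3 against 3 arrays allow. The call lay at the edge of the threshold. It was lost with each array centred on its median (adjusted p = 0.0650) and when any 1 of the 6 arrays was left out (adjusted p from 0.0561 without empty vector 3 to 0.165 without IKZF1 1), with a difference between 0.34 and 0.42 throughout.

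Sequences around RefSeq gene starts were at hand for 6 of the 9 genes, as 7 windows from 250 bases before to 50 after a start (RefSeq, GRCm38.p6). Shown are those of S1pr4, the receptor gene that rose, of Cxcr4, whose level hardly differed, and of Gpr183, at background. They are given 5′ to 3′ on the strand of the gene, with capitals for GGGAA, the core of sites that Ikaros binds, on either strand (TTCCC where it lies on the other). S1pr4 is at chr10:81500088-81500387, Cxcr4 at chr1:128592250-128592549 and Gpr183 at chr14:121965144-121965443, each on the minus strand.
S1pr4: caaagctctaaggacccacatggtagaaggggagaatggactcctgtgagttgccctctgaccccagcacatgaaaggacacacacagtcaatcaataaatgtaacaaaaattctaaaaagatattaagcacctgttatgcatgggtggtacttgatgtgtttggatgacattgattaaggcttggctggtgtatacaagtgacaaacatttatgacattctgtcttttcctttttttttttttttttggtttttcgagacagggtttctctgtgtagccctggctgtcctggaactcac
Cxcr4: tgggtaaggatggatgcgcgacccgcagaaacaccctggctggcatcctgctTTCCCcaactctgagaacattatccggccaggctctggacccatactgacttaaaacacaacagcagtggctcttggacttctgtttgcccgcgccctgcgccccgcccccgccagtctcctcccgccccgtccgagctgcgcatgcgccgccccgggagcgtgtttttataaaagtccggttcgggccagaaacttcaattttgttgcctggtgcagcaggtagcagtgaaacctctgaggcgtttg
Gpr183: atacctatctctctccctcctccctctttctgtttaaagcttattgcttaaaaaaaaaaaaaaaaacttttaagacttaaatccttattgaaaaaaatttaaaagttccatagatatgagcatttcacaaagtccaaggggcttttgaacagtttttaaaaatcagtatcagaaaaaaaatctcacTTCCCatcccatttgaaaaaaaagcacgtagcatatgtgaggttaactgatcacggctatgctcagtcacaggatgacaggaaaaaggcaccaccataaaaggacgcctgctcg

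The S1pr4 window held 0 matches to GGGAA, and the windows of Cxcr4 and Gpr183 held 1 each. At least 1 match stood in 3 of the 7 receptor windows and in 62.7% of all 32851 windows of this length. The longer TGGGAA, which overlaps the core, stood in 2 of the 7 receptor windows, that of Gpr183 and 1 of the 2 of Ccr6, and in 25.6% of all windows. Matches to TATAAA, on either strand, stood in the Cxcr4 window alone among the 7 and in 13.6% of all. CpG dinucleotides numbered 20 in the Cxcr4 window, 4 in that of Gpr183 and 1 in that of S1pr4, with a median of 7 over all windows. A match is a description of these letters and not a binding site.

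The chemokine receptor gene Ccr7 had levels of 11.75, 11.75 and 11.71 on the IKZF1 arrays and 11.13, 11.36 and 10.85 on the empty vector arrays. The IKZF1 arrays lay together, with an SD of 0.02, and above every empty vector array, which spread with an SD of 0.25. The difference was 0.63 ± 0.13 (SE, n = 3 each; 95% interval 0.33 to 0.93), 1.54-fold, and its adjusted p of 0.0618 in limma missed the threshold. It passed with replicate number as a block (adjusted p = 0.0272), where each IKZF1 array exceeded the empty vector array of its number, by 0.63, 0.40 and 0.86. It also passed with array weights (adjusted p = 0.0135). Leaving out empty vector 3 gave a difference of 0.50 that passed (adjusted p = 0.0312), and leaving out empty vector 2 one of 0.75 that passed (adjusted p = 0.0465). The difference did not pass without empty vector 1 (adjusted p = 0.244). Nor did it without IKZF1 1, 2 or 3 (adjusted p = 0.186, 0.190 and 0.174). The exact permutation p was 0.1. T cells and mature dendritic cells also carry Ccr7. By the mean of all arrays 3 of 10 T cell markers lay above the background limit, Lat, Cd3e and Cd247, and so did 4 of 9 dendritic cell markers, Tcf4, Bst2, Flt3 and Zbtb46. Lat averaged 8.97 in IKZF1 cells and 9.26 in empty vector cells. It read 9.02, 9.29 and 8.59 on the IKZF1 arrays. On empty vector 1, 2 and 3 it read 10.08, 10.37 and 7.34, so its mean there rests on empty vector 3. Tcf4 averaged 10.99 in IKZF1 cells and 10.83 in empty vector cells. Cd3e was at 7.12 to 7.66 on the IKZF1 arrays and 6.92 to 6.99 on the empty vector arrays. The 7 had adjusted p from 0.212 for Cd3e to 0.924 for Bst2. Of the other markers of these cells, Cd3d, Cd3g, Cd4, Itgax and Clec9a lay within the background on every array. All these markers are named after their values were seen. The summed level of the 10 T cell markers ran from log2 9.83 to 10.32 in the IKZF1 group. In the empty vector group it ran from 9.35 to 10.84. Such a sum adds linear intensities, so the brightest marker weighs most, here Lat on every array. For the 9 dendritic cell markers the summed level ran from 11.43 to 11.52 in the IKZF1 group. In the empty vector group it ran from 11.28 to 11.41. Tcf4 was the brightest of the 9 on every array and weighs most in that sum. It read 10.87 to 11.07 on the IKZF1 arrays and 10.70 to 11.05 on the empty vector arrays, so its groups overlapped. The part of either sum in the result was not tested. In bulk samples fewer cells of a type and less RNA per cell cannot be told apart.

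S1pr1, the receptor gene of lymphocyte exit, had a larger difference and a larger spread. Its levels were 10.43, 10.13 and 10.52 on the IKZF1 arrays and 9.49, 8.49 and 10.25 on the empty vector arrays. Empty vector 3 alone reached into the IKZF1 range, above IKZF1 2, and empty vector 2 was the lowest of all. The difference of 0.95 ± 0.41 (SE, n = 3 each; 95% interval -0.04 to 1.93) did not pass (limma adjusted p = 0.289; 0.0793 with replicate number as a block). Each IKZF1 array was above the empty vector array of the same number, by 0.94, 1.63 and 0.27. The difference was 1.37 when empty vector 3 was left out (adjusted p = 0.0469) and 0.49 when empty vector 2 was (adjusted p = 0.329). The exact permutation test gave p = 0.2.

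Cxcr4, the receptor gene of marrow retention, differed least. It read 11.83, 11.66 and 12.05 on the IKZF1 arrays and 11.86, 11.63 and 12.09 on the empty vector arrays. The arrays ranged over 0.46, yet arrays of the same number were within 0.04 of each other. The difference was -0.01 ± 0.15 (SE, n = 3 each; limma adjusted p = 0.974), and its 95% interval, -0.36 to 0.34, leaves room for a modest change either way. Its sign turned after quantile normalization and with array weights, and also without IKZF1 2 or without empty vector 3, with values up to 0.10.

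Cxcr5, the follicle homing receptor gene, was set by 1 array. Its levels were 9.78, 10.03 and 9.51 on the IKZF1 arrays and 9.53, 10.11 and 6.01 on the empty vector arrays. Empty vector 3 lay 3.50 below the lowest other array, a lower bound since it read within the background, while the remaining 5 arrays overlapped. The fitted difference of 1.22 ± 1.01 (SE, n = 3 each; limma adjusted p = 0.545) became -0.05 (adjusted p = 0.930) without that array.

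**Figure D2:**
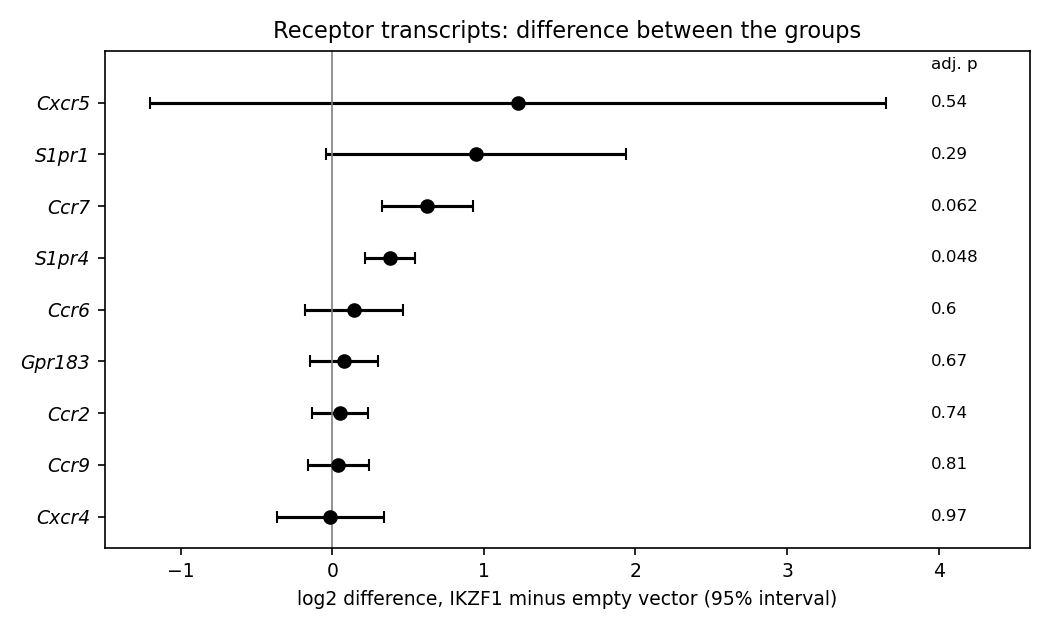
Log2 difference, IKZF1 minus empty vector, of the 9 receptor genes with 95% intervals from limma (3 arrays per group) and adjusted p at the right. The intervals of Ccr7 and S1pr4 lie above 0, and those of Cxcr5 and S1pr1 are the widest.

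The 4 receptor genes at background were Gpr183, the inflammatory monocyte receptor gene Ccr2, Ccr6, whose product reads CCL20, and Ccr9, whose product reads CCL25 and guides cells to thymus and gut. All their values lay between 4.70 and 6.07, and the groups overlapped for each. Gpr183 came nearest to the limit, at 6.07, 5.996 and 5.81 on the IKZF1 arrays and 5.80, 6.01 and 5.83 on the empty vector arrays. The differences ran from 0.04 for Ccr9 to 0.14 for Ccr6, with adjusted p from 0.596 to 0.810 in limma and 95% intervals within -0.18 to 0.47. Signals at this level cannot be told from background here, and a change of a low transcript would be understated.

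For the 2 receptor genes with the largest differences, the genes with the most similar profile were found as those with the smallest root mean square difference in log2 level over the 6 arrays, each gene centred on its own mean. Closest to Cxcr5 were Egln3, a prolyl hydroxylase gene that hypoxia induces, at 0.14, the collagen lysyl hydroxylase gene Plod2 at 0.16, and the kynureninase gene Kynu at 0.16. On empty vector 3 they read 5.89, 6.70 and 5.60, and on the other 5 arrays at least 9.01, 10.17 and 8.61. None of them passed the test between the groups (adjusted p from 0.558 to 0.629). Closest to S1pr1 were Ddc, the aromatic amino acid decarboxylase gene, at 0.18, the stannin gene Snn at 0.24 and the immunoglobulin mu heavy chain gene Ighm at 0.25. Their lowest level was on empty vector 2, as for S1pr1, and their adjusted p ran from 0.253 to 0.517. Likeness over 6 arrays is a description and rests largely on single arrays.

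**Figure D3:**
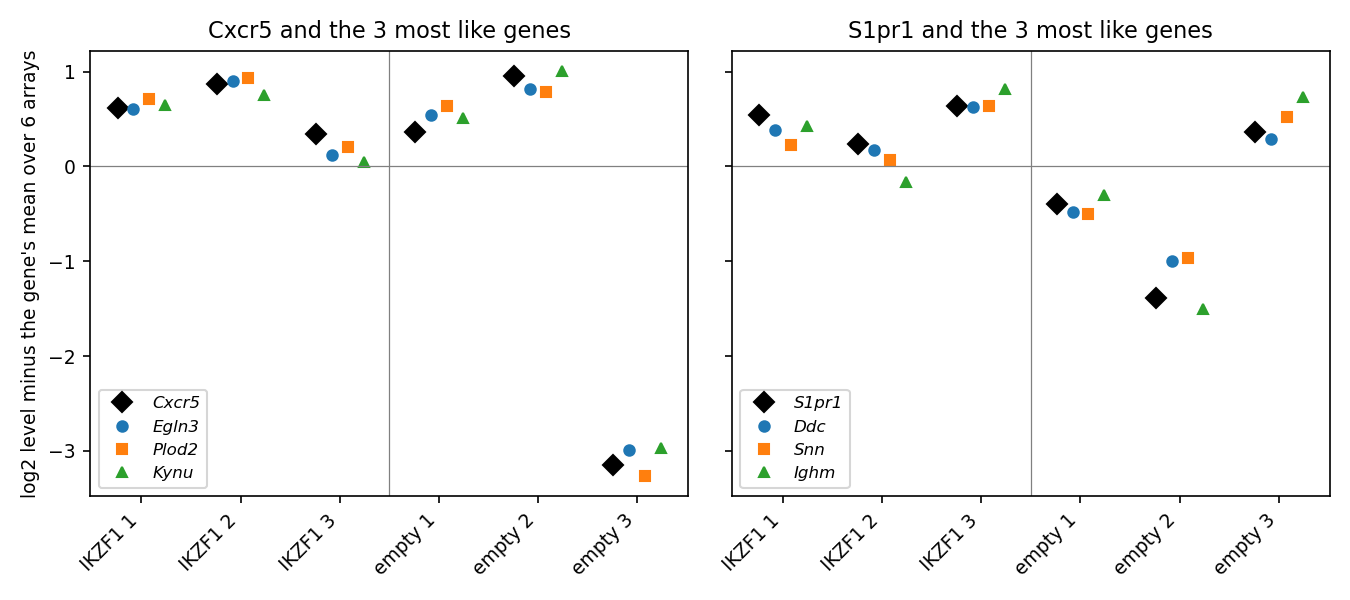
Log2 level minus the gene's own mean over the 6 arrays, for Cxcr5 (left) and S1pr1 (right) and the 3 genes nearest to each, IKZF1 arrays left of the line and empty vector arrays right of it. Cxcr5 and its neighbours share the low empty vector 3, and S1pr1 and its neighbours share the low empty vector 2.

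Of the 116 other genes measured in 10 lists of ligands, related receptors and signalling partners, 4 rose and 0 fell, 3.45% beside 2.25% of all genes. With replicate number as a block 11 of the 116 were higher and 4 lower, where 7.21% of all genes passed. That share stands beside every count with the block below. The genes that the block adds are named after their values were seen. Of 15 genes of transcription factors linked to these receptors, 8 had an unadjusted p under 0.05, beside 18.4% of all genes. The groups did not overlap for 9 of them, beside 26.5% of all genes. With the block 4 were higher. In limma 2 of the 15 rose, 0 fell and the list median was 0.26. Both encode NF-kB subunits of the alternative pathway: Nfkb2 differed by 0.54 ± 0.07 (SE; adjusted p = 0.0238) and Relb by 0.33 ± 0.05 (adjusted p = 0.0369). Relb was lost with each array centred on its median (adjusted p = 0.0673) and with an intensity trend (adjusted p = 0.103).

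The block added Klf2 and Prdm1. Prdm1, which encodes the plasma cell factor Blimp-1, averaged 7.32 in IKZF1 cells and 6.15 in empty vector cells, a difference of 1.17 (adjusted p = 0.124, and 0.00427 with the block). KLF2 is a zinc finger factor that activates S1pr1 in T cells. Klf2 read 10.24, 10.22 and 9.97 on the IKZF1 arrays and 9.004, 9.59 and 8.39 on the empty vector arrays. The groups did not overlap, and the difference of 1.15 ± 0.29 (SE, n = 3 each) did not pass in limma (adjusted p = 0.108) but did with replicate number as a block (adjusted p = 0.0256). Among empty vector arrays Klf2 was lowest on number 3, where S1pr1 was highest. Foxo1 encodes a further activator of S1pr1 and Ccr7 through Klf2 in T cells and is likewise named after its values were seen. Its difference was 0.42 (adjusted p = 0.280). On empty vector 1, 2 and 3 Foxo1 read 11.73, 11.43 and 12.13, highest on the array where S1pr1 was highest. Whether either factor bears on S1pr1 was not tested.

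Of 13 genes of the other S1P receptors and of S1P synthesis, transport and breakdown, 0 passed in limma and 1 was higher with the block; the unadjusted p was under 0.05 for 3, beside 18.4% of all genes. The 1 was Spns2, the S1P exporter gene, with 7.85, 8.13 and 7.60 on the IKZF1 arrays and 7.20, 7.16 and 6.85 on the empty vector arrays. Its difference was 0.79 ± 0.16 (SE, n = 3 each; adjusted p = 0.0599, and 0.0119 with the block). Cd69, whose product pulls S1PR1 off the cell surface and which is named after its values were seen, had a mean of 11.85 in IKZF1 cells and 11.83 in empty vector cells (adjusted p = 0.921). The oxysterol enzymes that make or break down the GPR183 ligand, Ch25h, Cyp7b1 and Hsd3b7, had differences of at most 0.08, the smallest p being that of Cyp7b1 (adjusted p = 0.517). None of the 3 passed at an unadjusted p under 0.05 in limma. Cyp7b1 and Ch25h lay within the background, where a change would be understated.

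Of 12 further chemokine receptor genes 0 passed in limma, and an unadjusted p under 0.05 was seen for 2, a share close to the 18.4% of all genes. Only 3 of the 12 lay above the background limit. Cxcr3, whose product reads interferon-induced chemokines, had the smallest p, with a difference of 0.34 (adjusted p = 0.131, and 0.0341 with the block). Among 5 atypical receptor genes, whose products take up chemokines without G protein signalling, 0 passed in limma or at an unadjusted p under 0.05. The smallest p was that of Ackr4, with 0.10 (adjusted p = 0.618). Of the 5, 2 lay above the background limit, and Ackr4 lay within the background. Of 9 chemokine ligand genes for these receptors, 3 of them above the background limit, 0 passed in limma, and 1 stayed under 0.05 before adjustment. That was Ccl25, which encodes the CCR9 ligand: its brightest probe set read 8.41, 8.41 and 8.25 on the IKZF1 arrays and 9.90, 9.89 and 8.50 on the empty vector arrays. Its difference was -1.07 (adjusted p = 0.207; -1.54 with adjusted p = 0.000963 without empty vector 3), while a further probe set of Ccl25 gave -0.10 (adjusted p = 0.518).

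Of 14 other receptor genes of lymphocyte positioning, 0 passed in limma, 2 had an unadjusted p under 0.05, a share no higher than the 18.4% of all genes, and with the block 1 was higher and 1 lower. The smallest p was that of the nucleotide receptor gene P2ry13, with -0.41 (adjusted p = 0.192, and 0.0433 with the block). Higher with the block was the lysophospholipid receptor gene Gpr55, at 0.53 with overlapping groups (adjusted p = 0.341, and 0.0316 with the block). It read 6.89, 7.19 and 6.57 on the IKZF1 arrays. On the empty vector arrays it read 6.50, 6.74 and 5.81, with number 3 within the background.

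Downstream of the receptors, Pik3r5 and Rgs14 rose. Pik3r5 encodes the p101 subunit through which G protein beta-gamma dimers engage phosphoinositide 3-kinase gamma. It read 9.87, 10.16 and 9.91 on the IKZF1 arrays and 9.17, 9.28 and 8.93 on the empty vector arrays, a difference of 0.86 ± 0.12 (SE, n = 3 each; adjusted p = 0.0260). It was the 1 of 22 migration effector genes to pass. An unadjusted p under 0.05 was seen for 6 of the 22, beside 18.4% of all genes. With the block 3 passed, all higher. These were Pik3r5, Rhoh at 0.46 (adjusted p = 0.142, and 0.0178 with the block) and Dock8 at 0.41 (adjusted p = 0.161, and 0.0466 with the block). Rgs14, which encodes a protein that speeds the shut-off of inhibitory G proteins, read 8.79, 8.86 and 8.87 on the IKZF1 arrays and 8.45, 8.45 and 8.36 on the empty vector arrays. Its difference was 0.42 ± 0.06 (SE, n = 3 each, adjusted p = 0.0275), and it was the 1 of 8 RGS genes to pass. An unadjusted p under 0.05 was seen for 2 of the 8, beside 18.4% of all genes. With the block Rgs18 was lower as well, at -0.66 with overlapping groups (adjusted p = 0.240, and 0.0487 with the block). An intensity trend ended the call of Rgs14 (adjusted p = 0.0595). Without empty vector 1, or without any 1 of the IKZF1 arrays, the calls of Pik3r5, Rgs14, Nfkb2 and Relb were each lost (adjusted p from 0.0825 to 0.202). Those of Rgs14, Nfkb2 and Relb were lost without empty vector 2 as well (adjusted p = 0.0675, 0.0642 and 0.0882).

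Among 15 genes of G proteins, receptor kinases and arrestins 0 passed in limma, 3 had an unadjusted p under 0.05, close to the 18.4% of all genes, and 2 were lower with the block. Arrb1, which encodes beta-arrestin 1, had -0.39 (adjusted p = 0.140, and 0.0347 with the block), and the receptor kinase gene Grk5 had -0.42 (adjusted p = 0.179, and 0.0406 with the block). Gnai1, an inhibitory G protein alpha subunit gene named after its values were seen, shared the low empty vector 3 of Cxcr5: it read 9.06, 9.01 and 8.29 on the IKZF1 arrays and 9.63, 9.995 and 6.04 on the empty vector arrays.

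**Figure D4:**
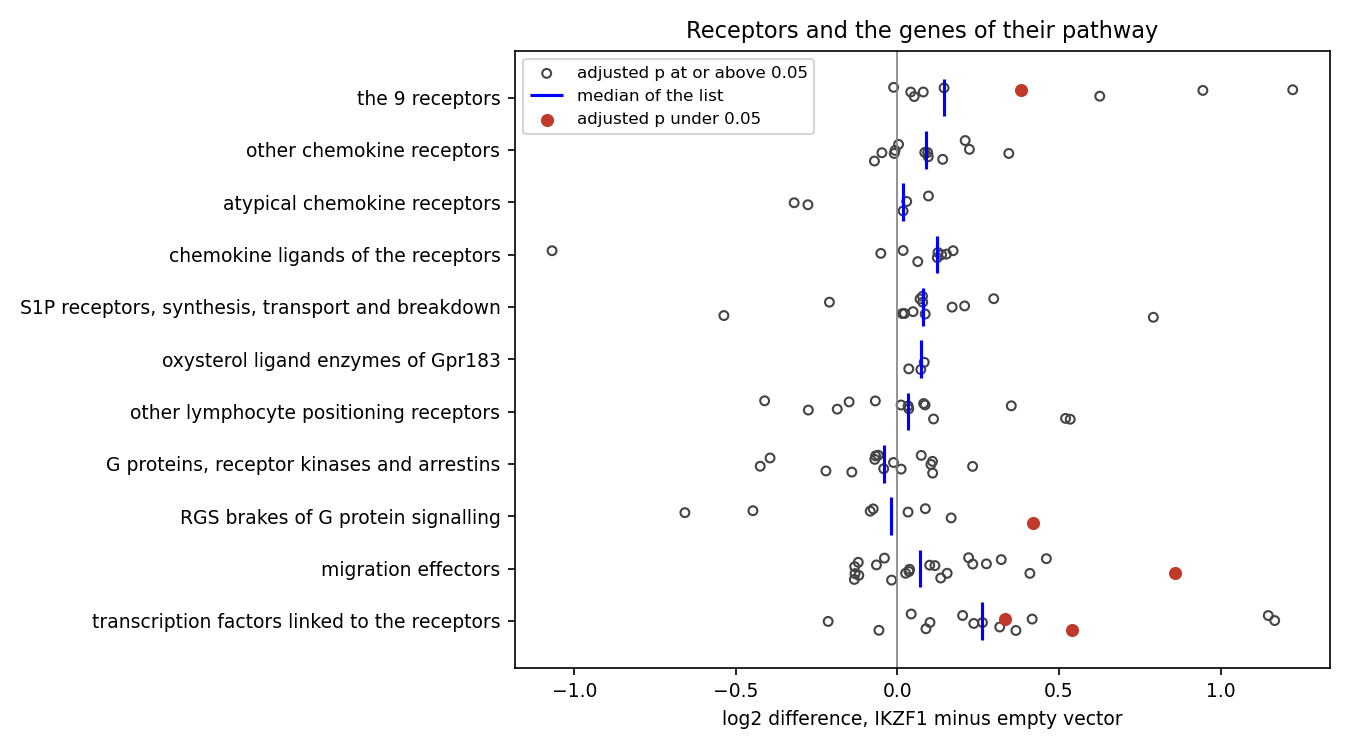
Log2 difference, IKZF1 minus empty vector, of each measured gene of the receptor list and of the 10 lists of related genes; filled red points passed an adjusted p under 0.05, open points did not, and blue bars are list medians. S1pr4, Rgs14, Pik3r5, Nfkb2 and Relb are the 5 filled points, all above 0.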

How the data were processed

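Total RNA from 6 samples was hybridised to Affymetrix arrays, 3 per group, grouped and numbered by the sample titles. Each deposited value is the linear intensity of a probe set; per the submitters' processing notes the authors used RMA (robust multi-array average), with its version, software and parameters not given in the sources used here. RMA evens out the distributions of arrays, and dim probe sets keep background, which shrinks their fold changes.

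From these, log2(intensity + 1) was taken. Of 35421 probe sets 21789 carried 1 symbol in the platform table, with symbols updated through RefSeq, and the brightest stood for each of 19936 genes. The test was limma 3.58.1 under R 4.3.3 (group only, 2-sided, Benjamini-Hochberg over all genes, adjusted p under 0.05). Array number limits the precision. On simulated data with 200 changed genes, 44.8%, 89.6% and 98.5% of those changed by 0.5, 1 and 2 log2 units were recovered, and 5.49% of calls were false. The simulated noise was independent for each gene and array, with no array standing apart and no likeness between arrays of a number. These rates therefore need not hold for the arrays here.

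Once group means were subtracted, arrays sharing a number correlated across genes at r = 0.24, 0.60 and 0.66, all over the limit of 0.1 set for taking the numbers of the titles as pairs. One pair of different numbers reached 0.11, and the labels do not say what a number marks. Values with replicate number as a block are given where they change the call of a receptor, related or marker gene.

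The receptor genes and lists were chosen with earlier results of these data known. The genes named are the 9 receptors, of each related list those past the threshold or else the smallest p, and a few marked as named later; of the marker lists, the genes past the threshold, pre-B cell markers and, as named later, those beside Ccr7 and those that the block adds. In the list of mature B and plasma cell markers Ms4a1 passed, at 4.17 (adjusted p = 9.69e-06); the other 7 marker lists had 0 calls in limma, and 0 to 3 markers each at an unadjusted p under 0.05. With the block Prdm1, which stands in the mature B list too, the myeloid marker Fcgr3 (0.76, adjusted p = 0.00876) and the stromal marker Col1a1 (0.30, adjusted p = 0.0499) were higher as well, and the mature B cell marker Cr2 was lower (-1.18, adjusted p = 0.0399). The lists held 123 related genes, 116 of them measured, and 8 sets of cell type markers; the others were not analysed here.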

Additional observations from a re-analysis of the deposited data

How the results depend on the processing

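Differences were recomputed under 14 other settings, 6 of which leave out 1 array each. With replicate number as a block 1438 genes, 2 receptor genes and 15 related genes passed, and with array weights, whose estimate did not fully converge, 1481, 2 and 13, in place of 448, 1 and 4. Centring arrays on their medians left 0 receptor genes, and an intensity trend left 2 related genes. Leaving out 1 array gave 24 to 947 genes, 0 to 2 receptor genes and 0 to 11 related genes. The all-gene counts were 24, 83 and 85 with IKZF1 1, 2 or 3 left out, and 28, 163 and 947 with empty vector 1, 2 or 3 left out. Fewer arrays leave fewer degrees of freedom; beyond that the cause was not tested. S1pr4, Ccr7, S1pr1, Ccr2 and Gpr183 kept a difference above 0 under each setting run. Cxcr4 turned to 0.014 after quantile normalization and 0.084 with array weights, and ran from -0.13 to 0.10 with 1 array left out, being 0.08 without IKZF1 2 and 0.10 without empty vector 3. Cxcr5 turned to -0.047 without empty vector 3 and reached 2.004 without empty vector 2. Ccr6 turned to -0.0030 without IKZF1 2 and reached 0.23 without IKZF1 1. Ccr9 turned to -0.0018 with centring, to -0.017 without IKZF1 2 and to -0.0054 without empty vector 1, and reached 0.094 without IKZF1 3. The replicate block changed no receptor call but that of Ccr7 (adjusted p = 0.0272). Quantile normalization, a pseudocount of 16, a level filter of 6 and the mean of probe sets changed no call among the receptor genes; the filter removed the 4 at background.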
